A study of Mus musculus with 16 samples.

Results

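The comparison described here asks whether PRMT1 siRNA changed the response of MEC1 cells to TGF-beta. For every gene, the log2 response to TGF-beta with PRMT1 siRNA was set against the log2 response with control siRNA, and the quantity reported is the first minus the second, here called the difference. It uses 8 of the 16 libraries of the series, 2 in each of 4 groups: control siRNA without TGF-beta, control siRNA with TGF-beta, PRMT1 siRNA without TGF-beta and PRMT1 siRNA with TGF-beta. MEC1 is an established mouse epicardial cell line, and all libraries come from this 1 line. The other 8 libraries repeat the same layout in cells that also received p53 siRNA, and serve below as a second measurement. All genes were members: 15044 of the 46348 genes in the table passed the filter on low counts and were tested. The title of the series links PRMT1, Mdm4 and p53 to the invasion and fate of epicardial cells. The TGF-beta dose and time and the amount of siRNA are not given in the sources used here.

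The epicardium is the mesothelial sheet that covers the heart. TGF-beta binds serine and threonine kinase receptors that phosphorylate SMAD proteins, and in cultured epicardial cells it drives the loss of epithelial and mesothelial genes and the gain of mesenchymal, matrix and smooth muscle genes. PRMT1 is the main enzyme that places asymmetric dimethyl marks on arginine residues of histones, splicing factors and signalling proteins. Mdm4 and Mdm2 are the inhibitors that hold p53 in check, and Mdm4 depends on the inclusion of an alternatively spliced exon for a stable protein.

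Library totals ran from 19617874 to 28699681 counts. Levels below are in CPM on library totals adjusted by TMM scaling factors, and are given for both libraries of a group. Changes are log2 values ± SE from edgeR's quasi-likelihood test with n = 2 libraries per group. Adjusted p-values are Benjamini-Hochberg values from that test over all genes tested, with calls at 0.05. The series calls the libraries biological replicates without naming separate cultures, so the p-values measure the spread between these libraries, which may be technical. Among epicardial markers, Wt1, Tbx18, Upk3b and Msln were present in all 8 libraries, while Krt19 and Aldh1a2 stood at or below 1.59 and 0.794 CPM. The 7 endothelial markers summed to 4.24 to 8.26 CPM per library and the 7 haematopoietic markers to 1.90 to 4.15, with Tie1 and Adgre1 at 0 in all 8. The 9 cardiomyocyte markers summed to 3.46 to 105 CPM, and Myh6 was at 0. Nearly all of this was Tnnt2, except with PRMT1 siRNA without TGF-beta. There the sums of 3.46 and 3.68 CPM included 1.14 and 0.994 CPM of Ttn. The targeted gene, Prmt1, measured 175 and 143 CPM with control siRNA, 176 and 172 with control siRNA and TGF-beta, 74.2 and 76.7 with PRMT1 siRNA and 73.8 and 76.8 with PRMT1 siRNA and TGF-beta. All 4 libraries with PRMT1 siRNA lay below all 4 without it, with a log2 PRMT1 siRNA effect of -1.07 ± 0.083 without TGF-beta and -1.21 ± 0.083 with it. Its own difference of -0.13 ± 0.12 was not called (edgeR adjusted p = 0.407), but -0.32 was with the length offsets described below (adjusted p = 0.0181).

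The TGF-beta response differed between PRMT1 siRNA and control siRNA for 4856 genes, 32.3% of those tested. The response was higher (less negative or more positive) with PRMT1 siRNA for 2684 genes and lower for 2172, which are 17.8% and 14.4% of the genes tested. The differences followed transcript length, as described next, so a second fit removed each library's smooth trend with length. It called 3720 genes, 25.6% of the 14549 tested genes with a known length. The genes described below were called in both fits with the same sign unless stated otherwise: 1593 higher (10.6% of the genes tested) and 1204 lower (8.00%). These 2 percentages are the background against which each gene group is read. Of the 1593 genes, 243 differed by 2-fold or more, and of the 1204 genes, 233 did. Whether strand was used in counting is not given in the sources used here, and Tagln, Dbp, Tgfbr3, C2, Dhx58, Vcan, Ctgf, Gata6, Malat1 and Tbx18 overlap other genes in addition to those noted below.

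Most of the changed responses were weaker ones. Of the 1593 genes with a higher response, 1019 (64.0%) had a response of smaller size with PRMT1 siRNA than with control siRNA, and each of those had a negative response with control siRNA. Of the 1204 genes with a lower response, 796 (66.1%) had a response of smaller size, and each of those had a positive response with control siRNA. Responses of larger size made up 34.4% and 26.9%, and responses of at least 0.5 (log2) in opposite directions made up 1.63% and 6.98%. Size here ignores sign. Of the 548 larger responses among genes called higher, 214 were positive with control siRNA, and the others turned from negative to positive. Of the 324 among genes called lower, 229 turned from positive to negative. The smaller responses were not split by sign with PRMT1 siRNA. Among all tested genes, 54.2% had a smaller response with PRMT1 siRNA, 43.2% a larger one and 2.60% opposite ones. With control siRNA, 1110 genes had a response of at least 2-fold upward; 269 of them (24.2%) were called lower and 33 (2.97%) higher. Of the 1604 genes with a response of at least 2-fold downward, 419 (26.1%) were called higher and 9 (0.561%) lower. The control response is 1 term of the difference, so these shares are a description and not a test.

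**Figure D1:**
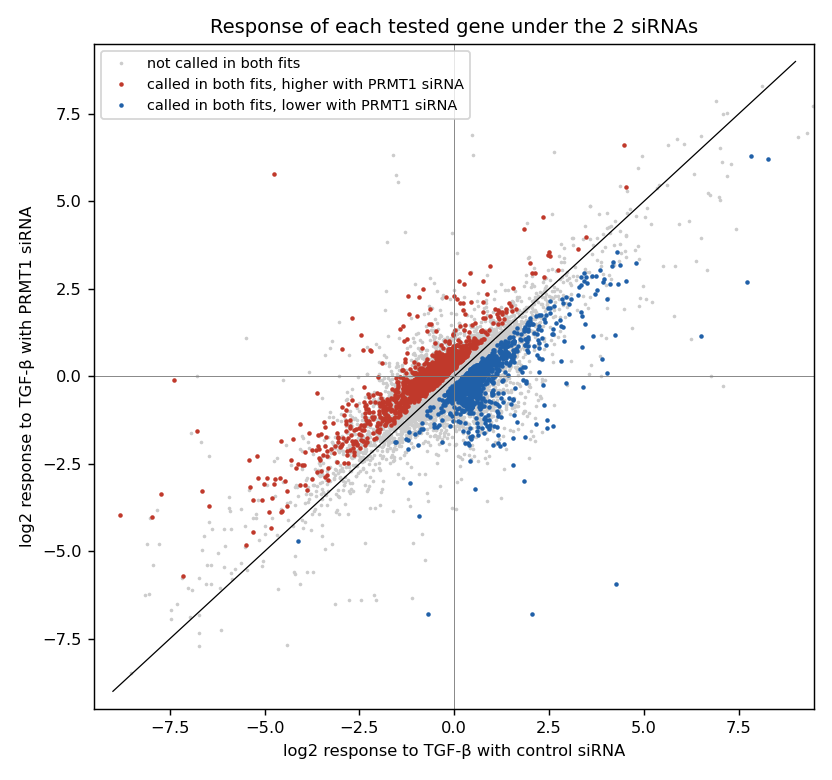
Each point is a tested gene, with its log2 response to TGF-beta with control siRNA on the x axis and with PRMT1 siRNA on the y axis; the diagonal marks equal responses. Most of the 1593 genes called higher (red) and of the 1204 called lower (blue) had a response of smaller size with PRMT1 siRNA. Outside the axes lie 4 genes.

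Which of the 4 groups stood apart also varied. For 585 of the 1593 genes called higher (36.7%), the group mean farthest from the other 3 was a low value in control siRNA with TGF-beta. For 444 (27.9%) it was a high value in control siRNA without TGF-beta, for 368 (23.1%) a high value in PRMT1 siRNA with TGF-beta and for 196 (12.3%) a low value in PRMT1 siRNA without TGF-beta. Among the 1204 genes called lower, control siRNA with TGF-beta stood apart as high for 495 (41.1%), control siRNA without TGF-beta as low for 337 (28.0%), PRMT1 siRNA with TGF-beta as low for 280 (23.3%) and PRMT1 siRNA without TGF-beta as high for 92 (7.64%).

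The difference was lower for genes with longer transcripts. Spearman's rho between the difference and the longest annotated transcript was -0.42 over 14549 genes, which are not independent replicates and share the same 8 libraries. The median difference was 0.50 for genes under 1000 bases and -0.40 for genes over 7000 bases, and 34.5% of the shortest genes were called higher against 2.38% of the longest. The trend had opposite signs in the responses that make up the difference, with rho of 0.15 for the control siRNA response and -0.22 for the PRMT1 siRNA response. Both libraries of PRMT1 siRNA with TGF-beta (rho -0.26 and -0.25 with length, relative to the gene means) and both of control siRNA with TGF-beta (0.18 and 0.18) carried it. The 2 libraries of control siRNA without TGF-beta went opposite ways, at -0.19 for replicate 1 and 0.08 for replicate 2. With length offsets, rho was -0.02 and the bin medians ran from 0.002 to 0.10. A relation with GC content was smaller and mostly remained, at 0.31 without and 0.24 with length offsets. What the length trend comes from was not tested.

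**Figure D2:**
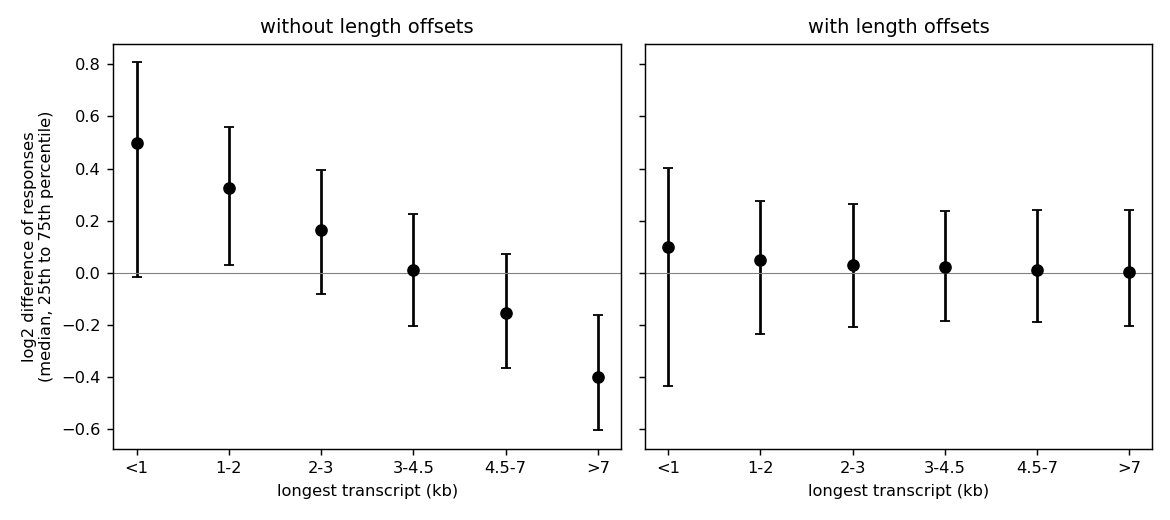
Median difference (points) and its 25th to 75th percentiles (bars) by the length of the longest transcript in kilobases, without length offsets on the left and with them on the right. The medians fall from 0.50 under 1 kb to -0.40 over 7 kb on the left and lie between 0.002 and 0.10 on the right.

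Many of the highest differences belonged to genes that TGF-beta lowered less with PRMT1 siRNA than with control siRNA. Clu (chr14:65968483-65981548, mm10) encodes clusterin, a secreted chaperone. It measured 299 and 273 CPM with control siRNA and 2.37 and 3.24 with control siRNA and TGF-beta, against 259 and 283 with PRMT1 siRNA and 25.2 and 30.8 with PRMT1 siRNA and TGF-beta. The untreated groups overlapped and the treated groups did not. Its log2 response was -6.64 ± 0.14 with control siRNA and -3.27 ± 0.099 with PRMT1 siRNA, a difference of 3.38 ± 0.18 (edgeR adjusted p = 1.49e-05). Tnxb, for the matrix protein tenascin X, had 12.2 and 14.1 CPM with control siRNA and 0 and 0.0426 after TGF-beta, the latter being 1 count over both libraries, so no fold is given. With PRMT1 siRNA it had 9.98 and 10.8 CPM without and 0.636 and 0.694 with TGF-beta. Islr, a secreted protein with leucine-rich and immunoglobulin repeats, measured 68.0 and 58.4 and then 3.75 and 5.03 CPM with control siRNA and 48.4 and 56.4 and then 16.1 and 17.9 CPM with PRMT1 siRNA, a difference of 2.21 ± 0.19. Untreated PRMT1 siRNA libraries were below the untreated controls and treated ones above the treated controls. Steap4, a metalloreductase, had 1.05 and 1.62 CPM with control siRNA and TGF-beta and 6.96 and 7.46 CPM with PRMT1 siRNA and TGF-beta (difference 2.04 ± 0.18). Fam180a, Rtn1, Dbp, Stk26 and Adamtsl1, whose control siRNA responses ran from -5.01 to -3.42, had differences of 1.91, 1.92, 2.13, 1.69 and 1.69. The call of Adamtsl1 was lost without replicate 1 of control siRNA with TGF-beta (1.57, edgeR adjusted p = 0.0567).

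**Figure D3:**
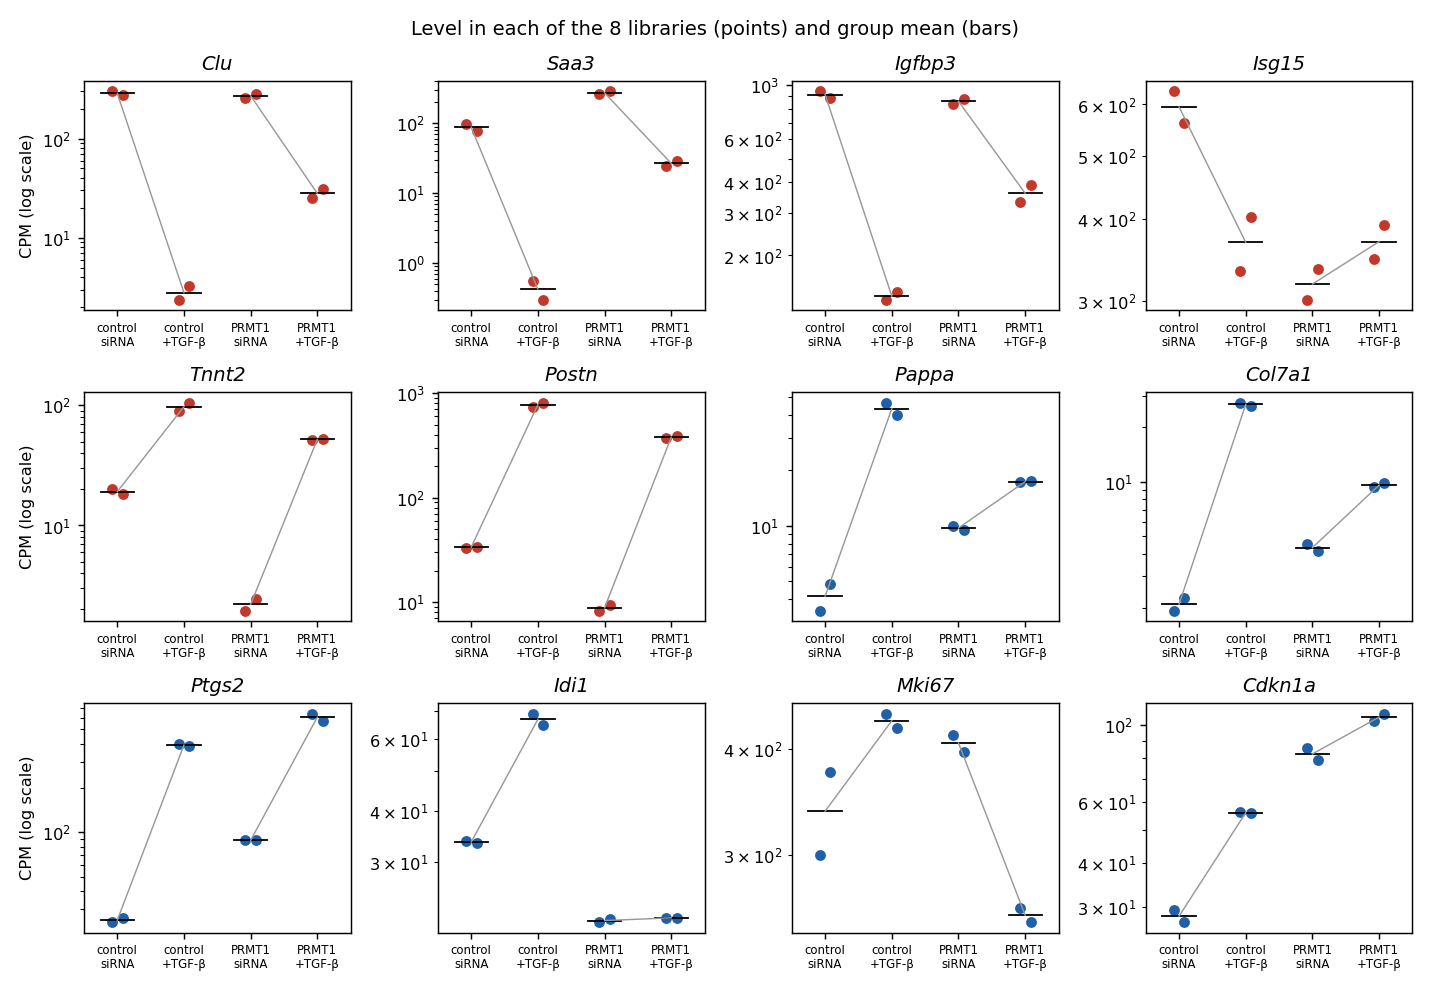
Level of 12 genes in each of the 8 libraries (points, CPM on a log axis) with the group mean (bar) and a line from untreated to TGF-beta treated cells under each siRNA. Genes called higher with PRMT1 siRNA are red and genes called lower are blue; Clu and Saa3 stand lowest in control siRNA with TGF-beta, and Pappa and Col7a1 stand highest there.

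Some growth factor and Wnt genes were among those that kept more expression. In the list of EGF, PDGF, FGF and IGF ligands and receptors, 9 of 38 tested members were called higher in both fits and 4 lower. The median response of this list was -0.47 with control siRNA and -0.56 with PRMT1 siRNA, so the list as a whole did not keep more. Igfbp3, which binds insulin-like growth factors outside the cell, measured 944 and 889 CPM with control siRNA and 131 and 141 after TGF-beta, and 842 and 878 and 332 and 388 CPM with PRMT1 siRNA (difference 1.49 ± 0.11, edgeR adjusted p = 3.76e-05). The PRMT1 siRNA libraries with TGF-beta lay between the untreated libraries and those of control siRNA with TGF-beta. Igf2, a fetal growth factor, and H19, the imprinted noncoding RNA beside it, had differences of 1.15 ± 0.094 and 1.63 ± 0.12. H19 was also lower with PRMT1 siRNA without TGF-beta, at 291 and 342 CPM against 522 and 518 CPM. Igf2 had 67.3 and 74.2 CPM with control siRNA and TGF-beta and 152 and 160.5 CPM with PRMT1 siRNA and TGF-beta; it overlaps an antisense gene, and the use of strand in counting is not given. Fgf7, a growth factor for epithelial cells, went the other way, with 22.2 and 19.8 CPM before and 21.8 and 26.5 after TGF-beta with control siRNA, and 39.4 and 36.8 before and 18.3 and 20.8 after it with PRMT1 siRNA (difference -1.17 ± 0.15). The group that stood apart for Fgf7 was PRMT1 siRNA without TGF-beta. Of 36 tested Wnt ligands, receptors and modulators, 8 were called higher and 1 lower in both fits. Sfrp1, a secreted Wnt inhibitor, measured 18.9 and 20.6 CPM with control siRNA and TGF-beta and 54.2 and 61.3 CPM with PRMT1 siRNA and TGF-beta, after 142 and 145 and 138 and 140.2 CPM without TGF-beta (difference 1.59 ± 0.099). Rspo1, a secreted Wnt enhancer, had a difference of 1.76 ± 0.14.

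Complement and acute phase genes had the highest median difference of the lists examined, 0.86 against 0.03 over all tested genes. Of 23 tested members, 10 were called higher in both fits and none lower, against a background of 10.6% and 8.00%. Their median log2 response was -1.89 with control siRNA and -1.05 with PRMT1 siRNA. Saa3, an acute phase apolipoprotein, measured 98.7 and 77.8 CPM with control siRNA and 0.551 and 0.298 after TGF-beta. With PRMT1 siRNA it measured 260.1 and 286 CPM without and 24.4 and 29.1 with TGF-beta, a difference of 4.39 ± 0.35 (edgeR adjusted p = 5.06e-05). PRMT1 siRNA libraries were thus above their control siRNA counterparts both without and with TGF-beta, and on the log2 scale further above with it. C3, the central complement component, went from 471 and 489.6 to 27.1 and 30.4 CPM with control siRNA and from 624 and 673 to 71.0 and 79.5 CPM with PRMT1 siRNA, a difference of 0.95 ± 0.11. Lbp, which binds bacterial lipopolysaccharide, and C2, a complement protease, had differences of 1.22 ± 0.15 and 1.18 ± 0.14.

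Saa3 and C3 have a match to a C/EBP motif upstream of their starts, and their promoters are shown as examples of members that hold it. The motif TTGCNNAA was searched on both strands in the 250 bases before each RefSeq start (GRCm38.p6). It lies in 42.9% of the 14 tested complement and acute phase genes with a sequence, against 7.26% of the 10130 tested genes with one. Among genes called in both fits with a sequence, it lies in 9.35% of the higher and 6.79% of the lower ones. Sequences are given on the gene's strand, 5′ to 3′, with the match in capitals. The windows are chr7:46715677-46715926 for Saa3 and chr17:57228137-57228386 for C3, both on the minus strand. A match is a description of letters and not a binding site.
Saa3: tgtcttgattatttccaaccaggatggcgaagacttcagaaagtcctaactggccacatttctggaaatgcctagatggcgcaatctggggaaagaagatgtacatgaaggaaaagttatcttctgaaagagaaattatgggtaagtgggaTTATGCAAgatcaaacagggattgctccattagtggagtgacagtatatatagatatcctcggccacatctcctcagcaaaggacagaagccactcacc
C3: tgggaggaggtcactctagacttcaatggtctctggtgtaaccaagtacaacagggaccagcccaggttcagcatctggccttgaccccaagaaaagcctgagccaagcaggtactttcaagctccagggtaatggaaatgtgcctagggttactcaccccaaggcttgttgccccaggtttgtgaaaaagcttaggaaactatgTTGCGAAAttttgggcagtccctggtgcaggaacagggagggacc

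Interferon-stimulated genes and the genes of antigen presentation were called in 1 direction. Of 39 tested interferon-stimulated genes, 15 were called higher in both fits and none lower, and of 15 tested antigen presentation genes, 10 were higher and none lower. Their median differences were 0.32 and 0.61, from median responses of -0.92 and -1.07 with control siRNA to -0.55 and -0.49 with PRMT1 siRNA. Isg15, a ubiquitin-like protein induced by interferon, measured 628 and 562 CPM with control siRNA and 334 and 404 after TGF-beta, and 301 and 336 and 348 and 391.6 CPM with PRMT1 siRNA (difference 0.91 ± 0.14, edgeR adjusted p = 0.00126, or 0.51 with length offsets). Here the group that stood apart was control siRNA without TGF-beta, which was high, while the treated groups overlapped; its response with PRMT1 siRNA was 0.22 without and -0.024 with offsets. Dhx58, a cytosolic RNA sensor, had 124 and 121 and then 27.8 and 36.5 CPM with control siRNA and 68.6 and 73.3 and then 37.1 and 45.1 CPM with PRMT1 siRNA, a difference of 1.13 ± 0.16. B2m, the light chain of MHC class I, changed from 1159 and 1092 to 639 and 806 CPM with control siRNA and from 861 and 937 to 1019 and 1143 CPM with PRMT1 siRNA, a difference of 0.91 ± 0.14, or 0.52 with offsets. Its response with PRMT1 siRNA was 0.27 without and 0.04 with length offsets, so the rise in CPM there was nearly absent with them. Psmb10, an immunoproteasome subunit, was lower with PRMT1 siRNA than with control siRNA both without and with TGF-beta, with 131 and 117 and 41.6 and 44.4 CPM in the control siRNA groups and 51.4 and 57.7 and 35.1 and 36.9 CPM in the PRMT1 siRNA groups. Its difference was 0.93 ± 0.11, or 0.62 with offsets. Tap2, a subunit of the peptide transporter, had a difference of 0.89 ± 0.093, and it overlaps genes on the other strand.

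The promoter of Isg15 (chr4:156200819-156201068, GRCm38.p6, minus strand) shows the interferon response element that many genes of this list carry. A pair of GAAA runs 2 bases apart was searched on both strands. It was found in 42.9% of the 28 tested interferon-stimulated genes with a sequence against 2.73% of all tested genes with one. Among genes called in both fits with a sequence, 4.76% of the higher and 2.64% of the lower ones had it. In Isg15, 3 overlapping matches are in capitals.
Isg15: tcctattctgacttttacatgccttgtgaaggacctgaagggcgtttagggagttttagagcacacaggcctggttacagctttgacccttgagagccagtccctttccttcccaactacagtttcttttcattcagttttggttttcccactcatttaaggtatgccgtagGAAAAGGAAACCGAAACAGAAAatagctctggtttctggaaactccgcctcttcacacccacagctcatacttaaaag

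Matrix genes were called in both directions and epicardial and mesothelial genes in 1. Of 38 tested matrix, elastic fibre and crosslinking genes, 11 were higher and 4 lower in both fits, and among the higher ones were the small proteoglycans that bind collagen. Dcn (decorin) measured 1325 and 1256 CPM with control siRNA and 54.0 and 66.1 after TGF-beta, and 1108 and 1239 and 109.6 and 133 CPM with PRMT1 siRNA, a difference of 1.15 ± 0.15. Fmod (fibromodulin) had 299 and 289 CPM in control siRNA without TGF-beta, and 117 and 122, 137 and 146 and 115 and 118 CPM in control siRNA with TGF-beta, PRMT1 siRNA, and PRMT1 siRNA with TGF-beta. The last 3 groups lay close together, and the difference of 1.02 ± 0.08 rested on the high level in untreated control cells. Of 28 tested epicardial and mesothelial genes, 8 were called higher and none lower in both fits, with a median difference of 0.22. Gata6 and Gata4, transcription factors of the epicardium, measured 27.7 and 28.9 and 35.5 and 37.7 CPM in control siRNA with TGF-beta and 46.7 and 46.3 and 63.1 and 64.6 CPM in PRMT1 siRNA with TGF-beta. The untreated groups of Gata6 overlapped and those of Gata4 lay between 62.3 and 69.9 CPM, and the differences were 0.76 ± 0.082 and 0.67 ± 0.081. The marker Wt1 (difference 0.21 ± 0.08, edgeR adjusted p = 0.0665) and the marker Tbx18 (-0.19 ± 0.10, adjusted p = 0.173) did not pass the test.

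Other higher differences came from genes with a larger positive response with PRMT1 siRNA. Tnnt2, a troponin of striated muscle, measured 20.02 and 18.1 CPM with control siRNA and 89.6 and 105 after TGF-beta, and 1.94 and 2.46 and 51.2 and 52.9 CPM with PRMT1 siRNA. PRMT1 siRNA libraries were below their counterparts in both conditions, and on the log2 scale furthest below without TGF-beta. The response was thus 4.57 ± 0.13 against 2.35 ± 0.091 (difference 2.21 ± 0.18, edgeR adjusted p = 5.06e-05). Postn (periostin), a matricellular protein of activated fibroblasts, had the same arrangement, with 33.1 and 34.0 and 8.23 and 9.43 CPM without TGF-beta and 738 and 814 and 374 and 386 CPM with it (difference 0.90 ± 0.11). Col8a2, a short-chain collagen, also did, with a difference of 1.07 ± 0.1. In another set, PRMT1 siRNA with TGF-beta was the highest group. Mmp14, a membrane-bound collagenase, measured 294 and 297 and 231 and 230 CPM without TGF-beta and 609 and 627 and 863 and 876 CPM with it for control and PRMT1 siRNA (difference 0.85 ± 0.074). The chemokines Ccl2 and Ccl7, which attract monocytes, had 239 and 246 and 178 and 186 CPM in PRMT1 siRNA with TGF-beta. Their other 3 groups spanned 115 to 153 CPM for Ccl2 and 61.3 to 86.4 CPM for Ccl7, and the differences were 1.10 ± 0.093 and 0.87 ± 0.09, the latter 0.47 with offsets. F3 (tissue factor), the initiator of coagulation, and Mfap4, an elastic fibre protein, were highest there too, at 109 and 95.2 and 25.2 and 26.8 CPM, with differences of 1.08 ± 0.11 and 2.14 ± 0.43. Mfap4 overlaps a gene on the other strand. Its untreated libraries had 0.358 and 0.629 CPM with control siRNA and 0.311 and 0.205 CPM with PRMT1 siRNA. Part of its difference rests on those few counts, as its PRMT1 siRNA effect was -0.90 ± 0.41 without and 1.24 ± 0.10 with TGF-beta. Of the 24 tested smooth muscle contractile genes, 5 were higher and 1 lower in both fits. Acta2 and Tagln, the usual markers of smooth muscle differentiation, were called higher without length offsets (0.43 ± 0.13 and 0.39 ± 0.10) but not with them (0.23 and 0.12, edgeR adjusted p = 0.109 and 0.269).

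Respiratory chain genes of the mitochondria, most of them short, moved with the length offsets. Of 43 tested respiratory chain genes, 41 were called higher in the fit without length offsets (background 17.8%) and 28 in both fits, with none lower. The median difference was 0.59 without and 0.30 with offsets, and the median transcript length was 1231 bases. Ndufs7, a subunit of complex I, measured 40.8 and 35.3 CPM with control siRNA, 25.01 and 24.5 after TGF-beta, 32.6 and 31.9 with PRMT1 siRNA and 38.2 and 40.1 with both. The level was lower with TGF-beta under control siRNA and higher with TGF-beta under PRMT1 siRNA, with no overlap, for a difference of 0.90 ± 0.11, or 0.53 with offsets. Its response with PRMT1 siRNA went from 0.28 to 0.067 with offsets. Cox6a1, of the terminal oxidase, had a difference of 0.91 ± 0.12, or 0.49 with offsets. Lysosome and autophagy genes, of intermediate length, were less altered by the offsets: 19 of 38 tested were higher and 1 lower in both fits, with medians of 0.34 and 0.26. Tfeb, the transcription factor that drives lysosomal genes, measured 26.7 and 25.8 CPM with control siRNA and 5.51 and 5.16 after TGF-beta, and 19.4 and 18.8 and 7.55 and 7.53 CPM with PRMT1 siRNA (difference 0.96 ± 0.13). Both treated PRMT1 siRNA libraries lay above both treated control libraries. Naglu, a lysosomal glycosidase, had a difference of 0.69 ± 0.094. In the list of oxidative stress genes, 16 of 33 tested were higher without offsets and 8 in both fits, and the median moved from 0.32 to 0.09. Gpx4, a peroxidase that protects membrane lipids, kept its call at 0.81 ± 0.10, or 0.44 with offsets.

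Genes with a lower response were in the main genes with a smaller positive response with PRMT1 siRNA. Pappa (chr4:65124174-65357509, mm10), a protease that cleaves IGF-binding proteins, measured 3.45 and 4.84 CPM with control siRNA and 46.6 and 39.8 after TGF-beta. With PRMT1 siRNA it measured 9.94 and 9.51 CPM without and 17.2 and 17.5 with TGF-beta. The range was narrower from both ends: PRMT1 siRNA libraries were higher than control ones without TGF-beta and lower with it. The log2 response was 3.38 ± 0.13 with control siRNA and 0.83 ± 0.12 with PRMT1 siRNA, a difference of -2.55 ± 0.18 (edgeR adjusted p = 3.57e-05). Col7a1, the collagen of anchoring fibrils, had the same arrangement, from 1.93 and 2.27 to 27.4 and 26.2 CPM with control siRNA and from 4.504 and 4.14 to 9.38 and 9.79 CPM with PRMT1 siRNA (difference -2.52 ± 0.17). Etv4, an ETS transcription factor, went from 1.25 and 1.31 to 26.8 and 24.5 CPM and from 2.68 and 2.71 to 16.9 and 16.5 CPM (difference -1.69 ± 0.19). In all 3 genes the groups were separate, with control siRNA with TGF-beta the highest. Hoxb9, a homeobox factor, Pkp1, a desmosomal plakophilin, and Serpini1, a serine protease inhibitor, had differences of -1.46 ± 0.16, -1.57 ± 0.30 and -1.80 ± 0.31. Megf10, an engulfment receptor, measured 63.4 and 70.5 CPM with control siRNA and TGF-beta and 38.6 and 39.2 CPM with PRMT1 siRNA and TGF-beta, and under 1 CPM in all untreated libraries. Its difference of -2.07 ± 0.47 rests on those few untreated counts, and its call was lost without PRMT1 siRNA replicate 1 (-1.59).

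Ptgs2, the inducible enzyme of prostaglandin synthesis, shows that a lower response need not mean a lower level. It measured 24.6 and 26.0 CPM with control siRNA and 88.0 and 88.3 with PRMT1 siRNA, and 395 and 386 and 637 and 570.5 CPM after TGF-beta. PRMT1 siRNA libraries were the higher ones in both conditions, but by 1.80 ± 0.073 without and 0.63 ± 0.062 with TGF-beta on the log2 scale, so the difference was -1.17 ± 0.095 (edgeR adjusted p = 5.80e-05). Fosl1, an AP-1 subunit, and Vcan, the large proteoglycan versican, were likewise higher with PRMT1 siRNA before TGF-beta, with differences of -0.88 ± 0.14 and -1.19 ± 0.13, the latter -0.66 with offsets. For Klf4, a zinc finger factor, the untreated groups overlapped at 28.6 and 26.4 and 28.2 and 25.8 CPM, and TGF-beta took it to 51.6 and 55.9 CPM with control siRNA and 29.5 and 30.7 CPM with PRMT1 siRNA (difference -0.81 ± 0.10). Of 34 tested NF-kappaB and AP-1 genes, 4 were higher and 5 lower in both fits.

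Among EMT transcription factors and mesenchymal genes, 8 of 28 tested were lower and 2 higher in both fits, while the list's median difference was -0.06, or -0.003 with offsets. Fn1 (fibronectin), a major matrix glycoprotein, measured 3773 and 4596 CPM with control siRNA and 10860 and 11320 after TGF-beta, and 5380 and 5007 and 8308 and 8125 CPM with PRMT1 siRNA. The treated PRMT1 siRNA libraries lay below the treated control libraries and the untreated ones above the untreated controls (difference -0.74 ± 0.14, edgeR adjusted p = 0.00299, or -0.38 with offsets). Snai2 (Slug), a repressor of epithelial genes, had 48.6 and 56.9 CPM in treated control cells and 36.9 and 41.8 CPM in treated PRMT1 siRNA cells, after 23.3 and 20.6 and 23.4 and 26.0 CPM without TGF-beta (difference -0.60 ± 0.14). Snai1 (Snail), its relative, gave 0.096 ± 0.11 (adjusted p = 0.552), and the sign turned with length offsets (-0.17). Itgav, an integrin subunit that binds fibronectin, and Hmga2, a chromatin protein of the EMT program, had differences of -0.71 ± 0.10, or -0.41 with offsets, and -0.62 ± 0.089; Hmga2 overlaps 2 genes on the other strand. Vim (vimentin) did not pass the test (0.27 ± 0.11, adjusted p = 0.086). Tjp1, a tight junction scaffold, was called without length offsets (-0.46 ± 0.11) and not with them (-0.16, edgeR adjusted p = 0.094).

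The genes of the TGF-beta pathway itself were split. Of 29 tested ligands, receptors and SMADs, 4 were higher and 4 lower in both fits, and of 25 tested early target genes, 4 were higher and 4 lower. Tgfbr3 (betaglycan), a coreceptor, kept more expression after TGF-beta, with 41.0 and 49.0 CPM with PRMT1 siRNA against 18.9 and 23.1 with control siRNA (difference 0.77 ± 0.15). Inhba, the activin A subunit, reached 40.9 and 37.1 CPM after TGF-beta with PRMT1 siRNA against 49.5 and 48.7 with control siRNA (difference -0.95 ± 0.21). Its difference was -0.60 without control siRNA replicate 1 and -1.37 without control siRNA replicate 2. Bambi, a pseudoreceptor that dampens the signal, measured 14.8 and 13.1 CPM with control siRNA and 5.29 and 5.16 after TGF-beta, and 10.2 and 12.2 and 10.5 and 11.5 CPM with PRMT1 siRNA. The treated control libraries were the lowest of the 8, and the difference was 1.40 ± 0.17 (edgeR adjusted p = 0.000515). Pmepa1, a feedback inhibitor, reached 510.2 and 493 CPM after TGF-beta with control siRNA and 678 and 684 CPM with PRMT1 siRNA (difference 0.52 ± 0.092). Ctgf, a matricellular target of both TGF-beta and YAP, went from 26.3 and 24.6 to 553 and 454 CPM with control siRNA and from 36.9 and 37.2 to 456 and 407 CPM with PRMT1 siRNA. Its treated libraries overlapped, and the difference of -0.76 ± 0.14 included a higher untreated level with PRMT1 siRNA. Skil, a SMAD corepressor, had a difference of -0.49 ± 0.082, or -0.22 with offsets.

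Cholesterol synthesis genes were called in 1 direction, lower. Of 25 tested, 14 were lower in both fits and none higher, with a median difference of -0.41, or -0.38 with offsets, against 0.03 over all genes. The median response was 0.60 with control siRNA and 0.22 with PRMT1 siRNA. Idi1, the isomerase that makes the second isoprenoid building block, measured 33.7 and 33.4 CPM with control siRNA and 69.0 and 64.7 after TGF-beta, and 21.4 and 21.8 and 21.9 and 21.9 CPM with PRMT1 siRNA. Its response was 0.99 ± 0.06 with control siRNA and 0.023 ± 0.066 with PRMT1 siRNA (difference -0.97 ± 0.089, edgeR adjusted p = 0.000138). The treated control libraries were the highest of the 8. Fatty acid synthesis and storage genes were less uniform, with 7 of 29 tested lower and 3 higher in both fits. Slc7a11, the cystine importer, was lower in the list of amino acid stress genes (-0.997 ± 0.16, or -0.59 with offsets), where 7 of 35 tested were lower and none higher in both fits.

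Cell cycle genes that were called had lower responses with 1 exception. Of 36 tested G2/M genes, 21 were lower and none higher in both fits, and of 36 tested S phase genes, 11 were lower and 1 higher. The G2/M median was -0.34, or -0.39 with offsets, from a median response of 0.18 with control siRNA to -0.10 with PRMT1 siRNA. Mki67, the proliferation antigen, measured 299.6 and 376 CPM with control siRNA and 439.8 and 423 after TGF-beta, and 416 and 397 and 259.5 and 249.8 CPM with PRMT1 siRNA. TGF-beta treated PRMT1 siRNA libraries were the lowest of the 8, the 2 untreated control libraries were far apart, and the difference was -1.03 ± 0.12 (edgeR adjusted p = 0.000449), or -0.59 with offsets. Top2a, the topoisomerase that untangles sister chromatids, had tighter pairs: 491 and 509 and 621 and 634 CPM with control siRNA, and 619 and 611 and 503 and 508 CPM with PRMT1 siRNA. The level was higher with TGF-beta under control siRNA and lower with TGF-beta under PRMT1 siRNA, with no overlap in either pair (difference -0.61 ± 0.075). Anln, the cytokinetic ring protein anillin, and Hmmr, a spindle-associated hyaluronan receptor, had the same arrangement, with differences of -0.78 ± 0.077 and -0.68 ± 0.088. In S phase, Uhrf1, which maintains DNA methylation, and Pola1, the catalytic subunit of DNA polymerase alpha, had differences of -0.55 ± 0.079 and -0.56 ± 0.073. In bulk samples, a smaller share of cycling cells and less RNA of these genes per cell cannot be told apart.

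The CCAAT box, searched as CCAAT on both strands, is common in the promoters of G2/M and cholesterol synthesis genes. It was found in the 250 bases upstream of 80.6% of the 31 tested G2/M genes and 88.9% of the 18 tested cholesterol synthesis genes with a sequence, against 36.5% of all tested genes with one, and in 40.5% of the genes called lower and 38.1% of those called higher in both fits. The box was also in 58.3% of the 12 tested antigen presentation genes with a sequence, a list with no member called lower. A few promoters with the boxes in capitals are shown, with 6 in Top2a (chr11:99024190-99024439, minus strand), 5 in Hmmr (chr11:40733438-40733687, minus strand) and 2 in Idi1 (chr13:8885356-8885605, plus strand), all GRCm38.p6. ATTGG is the box on the opposite strand.
Top2a: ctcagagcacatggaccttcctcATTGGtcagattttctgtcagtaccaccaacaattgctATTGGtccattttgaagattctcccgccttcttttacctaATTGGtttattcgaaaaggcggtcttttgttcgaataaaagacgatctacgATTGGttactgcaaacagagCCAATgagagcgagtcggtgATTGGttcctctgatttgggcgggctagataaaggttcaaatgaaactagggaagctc
Hmmr: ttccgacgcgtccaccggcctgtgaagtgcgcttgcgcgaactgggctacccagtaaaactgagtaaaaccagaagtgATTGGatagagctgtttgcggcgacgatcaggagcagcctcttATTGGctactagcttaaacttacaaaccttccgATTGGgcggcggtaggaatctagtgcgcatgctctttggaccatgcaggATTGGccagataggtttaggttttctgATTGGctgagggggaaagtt
Idi1: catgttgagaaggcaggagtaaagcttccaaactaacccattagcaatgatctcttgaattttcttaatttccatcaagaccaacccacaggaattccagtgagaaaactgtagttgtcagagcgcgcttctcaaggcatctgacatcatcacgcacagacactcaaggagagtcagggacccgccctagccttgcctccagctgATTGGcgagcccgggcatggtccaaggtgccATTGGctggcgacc

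The axis named in the series title moved as follows. Mdm4 (chr1:132959484-133030561, mm10) measured 139 and 164 CPM with control siRNA, 139.5 and 148 after TGF-beta, 127 and 132 with PRMT1 siRNA and 83.8 and 81.1 with PRMT1 siRNA and TGF-beta. The last group was the lowest, with the other 3 between 127 and 164 CPM. The difference was -0.58 ± 0.11 (edgeR adjusted p = 0.00295), and -0.28 with length offsets (adjusted p = 0.0131). It is a gene total, in which transcripts with and without the regulated exon are summed, and it includes reads that could belong to an overlapping gene on the other strand. Trp53 measured 146 and 128 and 149.9 and 149 CPM with control siRNA and 141 and 140.4 and 194 and 187 CPM with PRMT1 siRNA, so PRMT1 siRNA with TGF-beta was the highest group (difference 0.31 ± 0.091, edgeR adjusted p = 0.0236). Mdm2, both an inhibitor and a target of p53, measured 104 and 109.6 and 128 and 127 CPM with control siRNA and 160.2 and 163 and 156 and 161 CPM with PRMT1 siRNA (difference -0.29 ± 0.076). The calls of Trp53 and Mdm2 were lost, at adjusted p of up to 0.0775 and 0.0878, when any 1 library other than those of untreated control siRNA was left out. Cdkn1a, the p53 target that arrests the cell cycle, lay at 4 separate levels: 29.3 and 27.1 CPM with control siRNA, 56.1 and 55.6 after TGF-beta, 85.7 and 79.0 with PRMT1 siRNA and 103 and 107 with both. The step that TGF-beta added was smaller with PRMT1 siRNA, 0.35 ± 0.06 against 0.98 ± 0.069 (difference -0.63 ± 0.091, edgeR adjusted p = 0.000978). Of 47 tested p53 target genes, 9 were lower and 5 higher in both fits, with a median of -0.08. Sesn1, a stress-induced regulator of growth signalling, was one of the higher ones, with 41.6 and 38.2 and then 12.5 and 10.1 CPM with control siRNA and 25.5 and 26.9 and then 12.8 and 13.5 CPM with PRMT1 siRNA (difference 0.83 ± 0.14). Of 19 tested genes for p53 and its regulators, 7 were lower and 1 higher. The kinases Atm and Atr, which signal DNA damage to p53, had differences of -0.79 ± 0.19 and -0.67 ± 0.11, or -0.37 and -0.31 with offsets. The call of Atm was lost without replicate 2 of control siRNA with TGF-beta (adjusted p = 0.0506), its value was -0.53 without control siRNA replicate 1, and Atr overlaps a gene on the other strand.

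Some lists with long genes had fewer members called lower, or a smaller median, once length offsets were used. Of 41 tested chromatin regulators, 20 were called lower without offsets (background 14.4%) but 6 in both fits, and the median went from -0.28 to -0.04. Kmt2d, a histone methyltransferase, had a difference of -0.73 ± 0.15 without offsets and -0.043 with them (edgeR adjusted p = 0.631). Of 26 tested Hippo and YAP-responsive genes, 14 were lower without offsets and 6 in both fits, with medians of -0.30 and -0.06. Of 48 tested semaphorin, ephrin and guidance genes, 13 were lower without offsets and 11 in both fits, while the median turned from -0.18 to 0.08. The chromatin, Hippo and guidance lists thus all stayed above the background of 8.00% lower in both fits. Collagens went both ways in both fits (5 higher, 3 lower of 26 tested). Col12a1, a fibril-associated collagen, had a difference of -1.05 ± 0.13, or -0.55 with offsets.

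**Figure D4:**
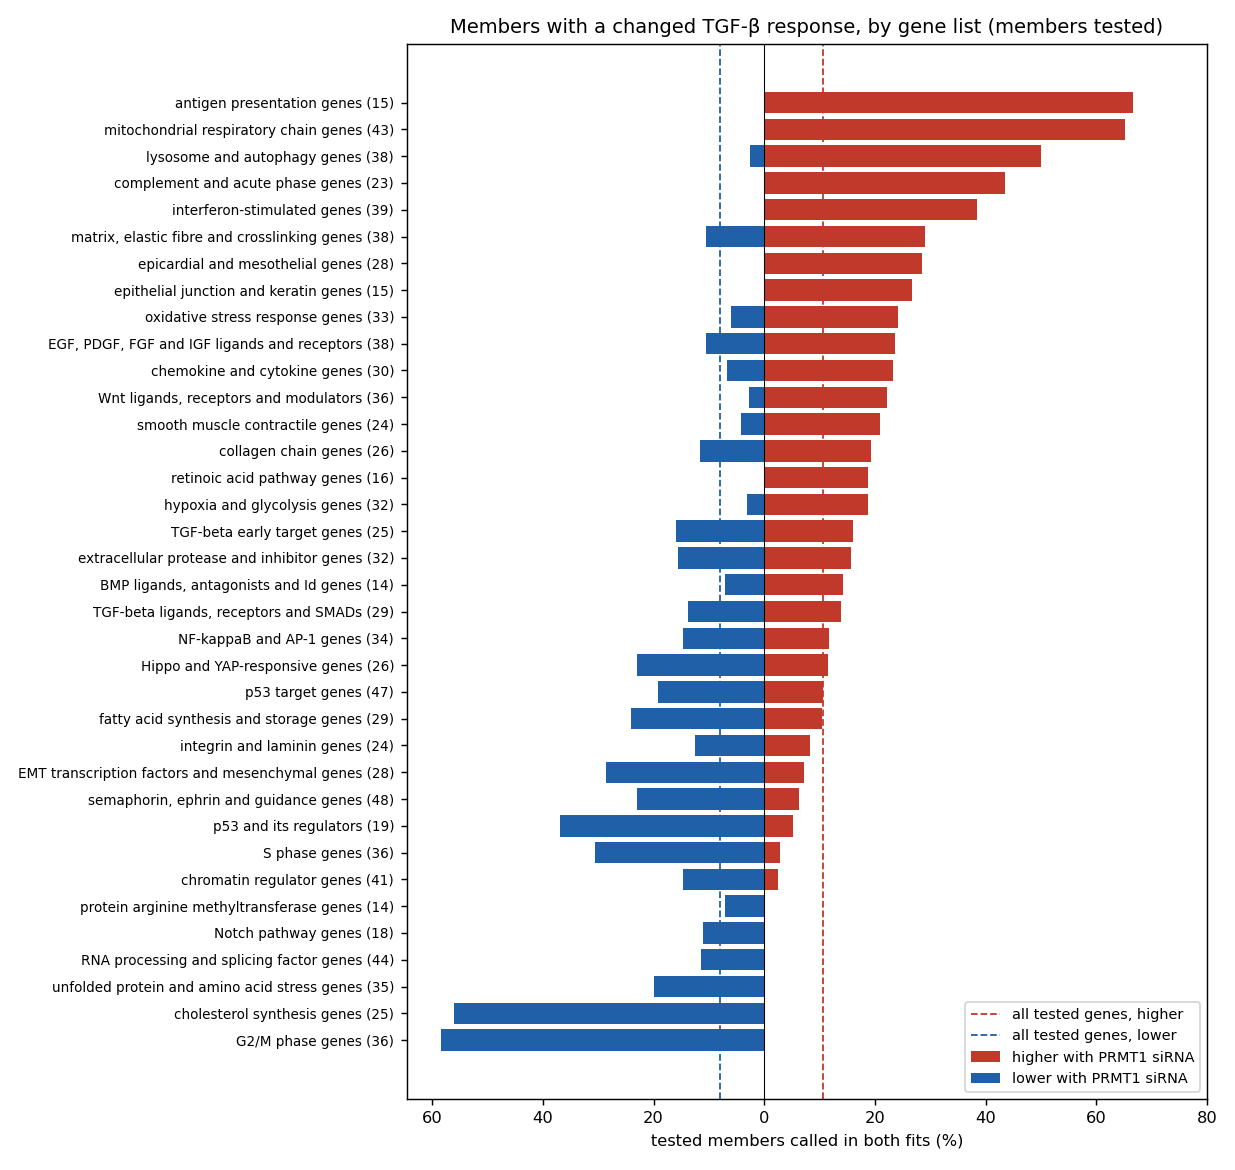
Share of the tested members of each list shown called in both fits, with genes whose response was higher with PRMT1 siRNA to the right (red) and lower to the left (blue), in percent; the number tested is in parentheses and dashed lines mark the shares over all tested genes, 10.6% and 8.00%. Antigen presentation, respiratory chain and lysosome genes have the longest bars to the right, and G2/M and cholesterol synthesis genes the longest to the left.

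Few long noncoding RNAs had a higher response. Of 1244 tested, 33 were higher and 114 lower in both fits, the latter near the background share of 8.00%. Their median difference was -0.23, or -0.40 with length offsets. The genes called higher were 96.7% protein coding and those called lower 87.9%, against 87.4% of all tested genes with an annotated type. Malat1, an abundant nuclear RNA, measured 530.4 and 866 CPM with control siRNA, 986 and 865 after TGF-beta, 1290 and 1530 with PRMT1 siRNA and 888 and 693 with both. Its untreated PRMT1 siRNA libraries were the highest of the 8, and the 2 untreated control libraries differed widely from each other (difference -1.24 ± 0.27, edgeR adjusted p = 0.00596). Kcnq1ot1, the antisense RNA of an imprinted domain, had a difference of -1.80 ± 0.36, or -0.72 with length offsets, and also varied between replicates (14.5 and 26.5 CPM with control siRNA).

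The same difference was measured a second time in the cells that received p53 siRNA in every group. These groups share no library with the first measurement. The fit also held the libraries of the first measurement, so the spread behind its calls was estimated from both and the calls are not independent. Trp53 itself measured 55.6 and 54.8 CPM with p53 siRNA, and 59.8 CPM in replicate 1 of p53 siRNA with TGF-beta. With both siRNAs it measured 89.8 and 91.3 CPM without and 91.4 and 90.6 CPM with TGF-beta. Cells with and without PRMT1 siRNA thus differed here in the Trp53 level that was left. Replicate 2 of p53 siRNA with TGF-beta was left out, because it stood far from its partner, with 20534 detected genes against 21715 to 22299 in the other libraries with p53 siRNA and 5.75% of its counts in the ribosomal RNA gene Rn18s-rs5, against 0.557% to 4.35% in the other 15 libraries. Its group then has 1 library, which is assumed to vary like the others. This fit called 1017 of 16103 genes (6.32%), 645 higher (4.01%) and 372 lower (2.31%). Of the 1593 genes called higher without p53 siRNA, 1084 (68.0%) had a positive difference here, and of the 1204 genes called lower, 829 (68.9%) had a negative one; 50.7% of all tested genes were positive. The median differences were 0.13 and -0.13, smaller than the 0.59 and -0.59 of the first measurement, in which the genes were chosen. The length trend had the opposite sign here (rho 0.18), and with length offsets the shares were 71.0% and 75.2%. These shares rest on the 1 library left out: with it, 40.5% and 40.4% of the genes kept their sign, against 48.2% positive among all tested genes. Called in both measurements with the same sign were 292 higher and 163 lower genes, and with opposite signs 6 and 4.

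Among the leading genes, Col7a1 and Etv4 had differences of -2.02 ± 0.20 and -1.68 ± 0.21 with p53 siRNA present, and Ptgs2 and Tnnt2 -1.17 ± 0.093 and 1.89 ± 0.17. For Etv4 and Ptgs2 these lay within 1 SE of the values without p53 siRNA. Clu measured 304.7 and 265 CPM with p53 siRNA and 8.12 CPM after TGF-beta in the 1 library used, against 412 and 375 CPM and then 34.8 and 35.2 CPM with both siRNAs, a difference of 1.64 ± 0.19. Saa3 had a difference of 0.08 ± 0.30 with p53 siRNA present and 4.39 ± 0.35 without. Pmepa1 and Bambi, from the TGF-beta pathway, had differences of -0.46 ± 0.10 and -0.20 ± 0.18 with p53 siRNA present, against 0.52 ± 0.092 and 1.40 ± 0.17 without. A test of the change between both measurements (the 3-way difference) called 1803 genes, 11.2% of those tested, and 670 (4.32%) with length offsets, but 3 with all 16 libraries. Mdm4 had a difference of -0.053 ± 0.13 with p53 siRNA present and Cdkn1a -0.97 ± 0.11. The 3-way difference was not called for either, at -0.52 ± 0.18 for Mdm4 and 0.34 ± 0.14 for Cdkn1a. With length offsets these values were -0.13 and 0.12.

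**Figure D5:**
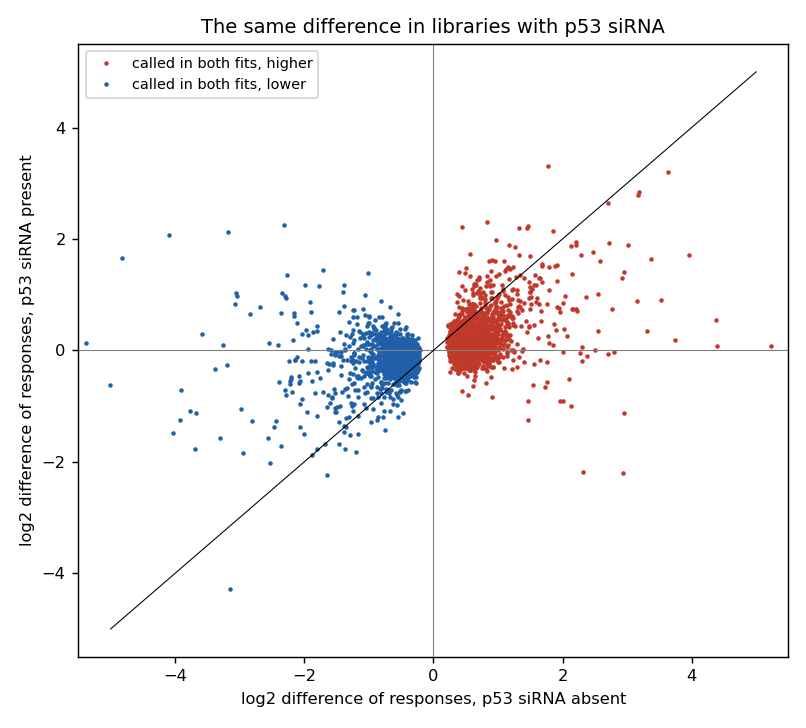
Difference of responses (log2) in cells without p53 siRNA on the x axis and in cells with p53 siRNA in all groups on the y axis, for genes called in both fits without p53 siRNA; the diagonal marks equal values. Red points are genes called higher and blue points genes called lower, 68.0% and 68.9% of which have the same sign on the y axis, in the 15-library fit; 9 genes lie outside the axes.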

How the data were processed

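Poly(A)-enriched RNA was sequenced, per the labels' protocols, in 16 libraries of MEC1 cells, 2 in each of 8 groups. The authors deposited expected counts per gene, unscaled for depth or length. The submitters' processing notes name TopHat2, Partek and the build mm10; versions, annotation, counting options and strand are not given in the sources used here. Of 46348 genes, 29120 had a count, and 60% of the values above 0 were whole to within 0.01; counts were rounded. Gene positions come from the deposited table, whose stop lies 1 base past the gene end and was reduced by 1.

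Groups were taken from the sample titles. The 8 libraries of the comparison were fitted with 1 mean per group in edgeR 4.0.16 (R 4.3.3, limma 3.58.1) after TMM scaling and the filterByExpr filter. A second fit added offsets from a loess curve (span 0.3) of each library's log2 CPM deviation on the longest transcript of GENCODE vM21, which may not be the authors' annotation; 42003 genes matched by symbol, 822 by synonym and 3523 not. SE is the log2 change divided by the square root of F. The response under each siRNA is given with its SE and was not tested. The p53 siRNA libraries entered a 15-library fit. The procedures were run on simulated counts with a common dispersion, without and with a length trend added to PRMT1 siRNA with TGF-beta. Trends that differ between libraries of a group, as in untreated control siRNA, were not simulated. Alternatives were DESeq2 1.42.0, RLE scaling, no filter, 15 or 16 libraries, a replicate block, length and GC offsets, and leaving out each library; a group left with 1 library is assumed to vary like the others.

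The comparison, the gene lists and the naming rule were chosen with earlier results of these data known. The rule names Prmt1, Trp53, Mdm2, Mdm4, Cdkn1a, Wt1, Tbx18, Snai1, Snai2, Vim, Fn1, Acta2, Tagln, Tjp1 and Cdh1, the last too low to test; the 15 highest and 15 lowest differences among genes called in both fits that averaged 5 CPM or more and had 1 sign in all 16 choices of 1 library per group; in each list, up to 4 called members of lowest adjusted p; and 5 genes for the 3-way difference. Predicted genes, ribosomal protein genes and genes sharing reads with near copies are not named, and some genes that the rule names and 1 list are not reported here. Promoters are from RefSeq (GRCm38.p6), present for 10130 of the 15044 tested genes; Clu has none in the table used. AP-1 (TGANTCA), TEAD (GGAATG), SRE (TCACNCCAC) and CHR (TTTGAA) motifs were searched as well. They lay in 4.38%, 10.7%, 0.987% and 10.4% of the tested genes with a sequence. Among genes called higher in both fits the shares were 5.18%, 12.3%, 1.09% and 9.02%, and among those called lower 4.4%, 9.31%, 1.38% and 11.4%. SRE lay in 5.56% of the 18 cholesterol synthesis genes, CHR in 32.3% of the 31 G2/M genes and AP-1 in 28.6% of the 28 interferon-stimulated genes.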

Additional observations from a re-analysis of the deposited data

Results flagged for a closer look

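For 5 genes the difference of responses itself changed between cells without and with p53 siRNA (edgeR 3-way difference in 15 libraries, adjusted p = 0.00179 for each; all 5 kept the call with length offsets). Only 3 genes in all passed this test when replicate 2 of p53 siRNA with TGF-beta was included. Pappa had a difference of -2.55 ± 0.18 without p53 siRNA and 0.13 ± 0.20 with it, a 3-way difference of -2.68 ± 0.27. With p53 siRNA it measured 6.89 and 6.79 CPM before and 17.5 CPM after TGF-beta, and with both siRNAs 6.44 and 7.70 CPM before and 18.9 and 20.39 CPM after. Ak4, a mitochondrial adenylate kinase, had differences of 0.45 ± 0.14 and 2.22 ± 0.15 (-1.77 ± 0.20). The first of these ran from 0.40 to 0.50 when 1 library was left out, and was not called in every such fit. H19 had 1.63 ± 0.12 and 0.22 ± 0.11 (1.41 ± 0.16). Krt14, a basal keratin, had 0.54 ± 0.11 (0.29 with length offsets) and -0.81 ± 0.12 (1.35 ± 0.15). Adgrg6, an adhesion G protein-coupled receptor, had -1.08 ± 0.10 and 0.25 ± 0.11 (-1.33 ± 0.15). These genes were chosen as the 5 with the lowest adjusted p for this test among the genes called in both fits and open to naming. The single library of p53 siRNA with TGF-beta enters each value.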

How the results depend on the processing

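The counts of called genes depended most on the libraries in the fit. Without p53 siRNA, the difference was called higher for 2684 and lower for 2172 genes. It was called for 201 and 121 with all 16 libraries, which bring in the deviating replicate 2 of p53 siRNA with TGF-beta; all 322 were among the 4856. DESeq2 called 1775 higher. Leaving out 1 library gave 1540 to 3511 higher and 1197 to 3032 lower, falling by over 1.5 times without either library of either TGF-beta group or without PRMT1 siRNA replicate 1, and, with length offsets, 1309 to 2635 and 896 to 1812, falling that far without PRMT1 siRNA replicate 1 or PRMT1 siRNA with TGF-beta replicate 2. With p53 siRNA present, 645 and 372 became 354 and 201 with all 16 libraries, 983 and 742 with length offsets, and 338 to 715 and 146 to 456 without 1 library, the lowest without p53 siRNA replicate 1. The 3-way counts of 976 and 827 became 1 and 2 with all 16 libraries, 429 and 241 with length offsets, and 27 to 1631 and 13 to 1474 without 1 library; each of p53 siRNA replicate 1, p53 siRNA replicate 2, both-siRNA replicate 1 and both-siRNA with TGF-beta replicate 2 took them to 165 or fewer, and the cause was not tested. RLE scaling, no filter and 15 libraries moved no count by more than 1.5 times.

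Same-numbered libraries did not deviate together (correlations -0.11 to 0.10), so the numbers do not pair them. A replicate block called 2665 and 2136 genes, 2267 and 1698 with length offsets, 608 and 336 with p53 siRNA present and 898 and 843 for the 3-way difference. Of the 183 genes the rule allows, 182 kept direction and side of the threshold with the block and 183 with RLE scaling, 170 with length offsets, 159 with length and GC offsets and 73 with all 16 libraries, where 110 lost the call. Of 178 called, 158 kept the call without any 1 library; Acta2 (adjusted p up to 0.104), Tagln (up to 0.071) and Tjp1 (up to 0.0578) did not, each failing without PRMT1 siRNA replicate 1 and PRMT1 siRNA with TGF-beta replicate 2 among others. Snai1, at 0.10, reversed to -0.17 with length offsets, -0.17 with the block added, -0.15 in 15 libraries, -0.34 with length and GC offsets, and ran from -0.0042, without control siRNA replicate 1, to 0.18 when 1 library was left out. With 2 libraries a group, small differences and genes of few counts had little precision.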

Other observations

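Other gene groups were called as follows. Of 16 tested retinoic acid pathway genes, 3 were higher and none lower in both fits. Rarb, a retinoic acid receptor, measured 23.1 and 21.4 CPM with control siRNA and 4.02 and 5.24 after TGF-beta, and 18.8 and 18.9 and 8.67 and 10.0 CPM with PRMT1 siRNA (difference 1.24 ± 0.17, edgeR adjusted p = 0.000807). Of 32 tested hypoxia and glycolysis genes, 6 were higher and 1 lower. Eno2, a neuron-type enolase of glycolysis, had a difference of 0.56 ± 0.12. Among 48 tested guidance genes, Slit3, a secreted repellent, had 74.4 and 75.1 CPM with control siRNA and TGF-beta and 152 and 169.7 CPM with PRMT1 siRNA and TGF-beta (difference 0.95 ± 0.10).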
